A study of Mus musculus with 18 samples.

Results

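The 10 genes described here mark intraepithelial lymphocytes, the T cells that sit between the epithelial cells of the gut. They are Cd3d, Cd3e, Cd3g, Cd8a, Gzma, Gzmb, Trdc, Itgae, Cd7 and Nkg7, chosen by gene symbol from the 55335 genes of the count table, and all 10 were among the 21349 genes that passed the filter on low counts. Small intestinal crypts, the epithelial pockets at the base of the villi, were isolated from mice of 8 to 12 weeks with both copies of Prmt1 floxed (PRMT1 fl/fl). KO mice also carried Vil-CreERT2, a tamoxifen-dependent recombinase that the villin promoter drives in the epithelium and not in lymphocytes, and WT mice were PRMT1 fl/fl littermates. Mice of both genotypes were given 2 mg of tamoxifen per injection, 2 times before collection on day 2 and 5 times before collection on day 7 or day 14, so that the day and the number of injections cannot be told apart between day 2 and the later days. Each of the 6 genotype by day groups held 3 mice with 1 library per mouse, 18 libraries in all. Sex was not taken into account, and the labels name the tissue only as intestine.

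Intraepithelial lymphocytes are mostly T cells of the CD8 kind with ready-made cytotoxic granules. A large part of them carries the γδ T cell receptor, and many carry CD8 as a pair of α chains without the β chain. They are held in the epithelium by the integrin CD103, which binds E-cadherin on epithelial cells, and they are more frequent along the villus than in the crypt. A crypt preparation that is freed with EDTA takes along those lymphocytes that lie in or on the epithelium.

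The members fall into 4 roles. Cd3d, Cd3e and Cd3g encode the signalling chains of the T cell receptor complex, and Trdc encodes the constant part of its δ chain. Cd8a encodes the CD8 α chain, and Cd7 encodes a surface protein of T and NK cells. Itgae encodes the αE chain of CD103. Gzma and Gzmb encode granzymes, the proteases of cytotoxic granules, and Nkg7 encodes a granule membrane protein of cytotoxic cells.

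In the mm10 assembly the 3 Cd3 genes lie together on chromosome 9 within 40056 bases. Cd3g (ENSMUSG00000002033.14, chr9:44969572-44980431, minus strand) and Cd3d (ENSMUSG00000032094.8, chr9:44981786-44987339, plus strand) face away from each other with starts 1355 bases apart, and Cd3e (ENSMUSG00000032093.7, chr9:44998740-45009627, minus strand) follows. Gzmb (ENSMUSG00000015437.5, chr14:56258838-56262260, minus strand) and Trdc (ENSMUSG00000104876.1, chr14:54142851-54148868, plus strand) share chromosome 14, and Gzma (ENSMUSG00000023132.8, chr13:113093825-113100981, minus strand) lies on chromosome 13. Itgae (ENSMUSG00000005947.11, chr11:73090583-73147446, plus strand) and Cd7 (ENSMUSG00000025163.6, chr11:121036747-121039418, minus strand) share chromosome 11. Cd8a (ENSMUSG00000053977.13, chr6:71373427-71379173, plus strand) is on chromosome 6 and Nkg7 (ENSMUSG00000004612.9, chr7:43437073-43438249, plus strand) on chromosome 7. Strand was not used in the counting, and the exons of 3 members overlap exons of a gene on the opposite strand. These are Cd3e with Gm48719 over 135 bases, Cd7 with Gm11775 over 122 bases, and Trdc with Gm43434 over 96 bases and with Trdv5 over 207 bases, so the source strand of fragments there is uncertain.

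The 250 bases before the RefSeq start of 4 members are given here, since Gzma, Gzmb, Cd3g and Cd8a stand for the granzymes, the receptor and the coreceptor whose levels the comparisons turn on. The sequences are RefSeq's on GRCm38.p6 and are written 5′ to 3′ on the strand of the gene. For Gzmb the RefSeq start lies upstream of the start in the count table, so its window does not adjoin the gene coordinates given above. Capitals mark matches to TGTGGT, the core recognised by RUNX factors, and to AGGAAG, a core recognised by ETS factors, on either strand. Both families are known regulators of T cell genes.
Gzma (chr13:113100982-113101231, minus strand): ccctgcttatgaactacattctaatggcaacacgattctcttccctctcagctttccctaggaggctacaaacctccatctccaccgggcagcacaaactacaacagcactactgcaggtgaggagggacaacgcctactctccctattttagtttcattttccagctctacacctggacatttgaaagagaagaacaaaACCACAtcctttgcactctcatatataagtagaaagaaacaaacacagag
Gzmb (chr14:56262335-56262584, minus strand): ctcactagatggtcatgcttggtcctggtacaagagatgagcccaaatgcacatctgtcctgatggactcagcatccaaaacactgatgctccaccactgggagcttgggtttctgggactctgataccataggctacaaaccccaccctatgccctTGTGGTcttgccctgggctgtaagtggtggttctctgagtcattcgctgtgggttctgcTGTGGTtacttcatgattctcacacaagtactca
Cd3g (chr9:44980432-44980681, minus strand): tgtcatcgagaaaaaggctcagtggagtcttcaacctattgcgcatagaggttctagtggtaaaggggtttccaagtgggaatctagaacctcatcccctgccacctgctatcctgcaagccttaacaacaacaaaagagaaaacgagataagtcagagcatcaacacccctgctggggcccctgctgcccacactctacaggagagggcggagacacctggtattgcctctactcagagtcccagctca
Cd8a (chr6:71373177-71373426, plus strand): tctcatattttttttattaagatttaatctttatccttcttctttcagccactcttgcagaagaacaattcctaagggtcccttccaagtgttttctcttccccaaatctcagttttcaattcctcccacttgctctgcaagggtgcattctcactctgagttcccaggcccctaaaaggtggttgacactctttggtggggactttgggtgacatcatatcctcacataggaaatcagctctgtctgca
The Gzma window holds 1 RUNX core, on the strand opposite to the gene, and the Gzmb window holds 2, while those of Cd3g and Cd8a hold neither motif. The promoter table held 7 of the 10 members, of which 3 had a RUNX core (Gzma, Gzmb and Nkg7) and 3 an ETS core (Cd3d, Cd3e and Nkg7). Among 32544 windows of the same length, 14% held the RUNX core and 29.6% the ETS core. A match describes letters in this window and not a bound site.

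Library totals ran from 12844642 to 31493484 counts, and replicate libraries of a group correlated at r = 0.971 to 0.990 over the genes tested. Prmt1 itself was lower in all KO libraries than in all WT libraries on each day, with log2 fold changes of -0.89, -0.59 and -0.72 on days 2, 7 and 14 (Benjamini-Hochberg adjusted p of 0.0264, 0.00675 and 0.00329 by edgeR's quasi-likelihood test). Levels are given as CPM, which scales a gene's count to a fixed library total, on TMM-scaled library sizes, and a gene was called where its adjusted p by that test was under 0.05. The members were low to moderate in abundance, from a median of 35 counts per library for Cd3d (13 to 70) and 64 for Nkg7 (19 to 129) up to 1294.5 for Gzma (519 to 2953). A pair of libraries stood apart from their groups before any comparison. WT day 7 replicate 1 and KO day 14 replicate 2 were each the highest library of their group for all 10 members, and the fitted comparisons of the members that involve them are given with and without them.

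**Figure D1:**
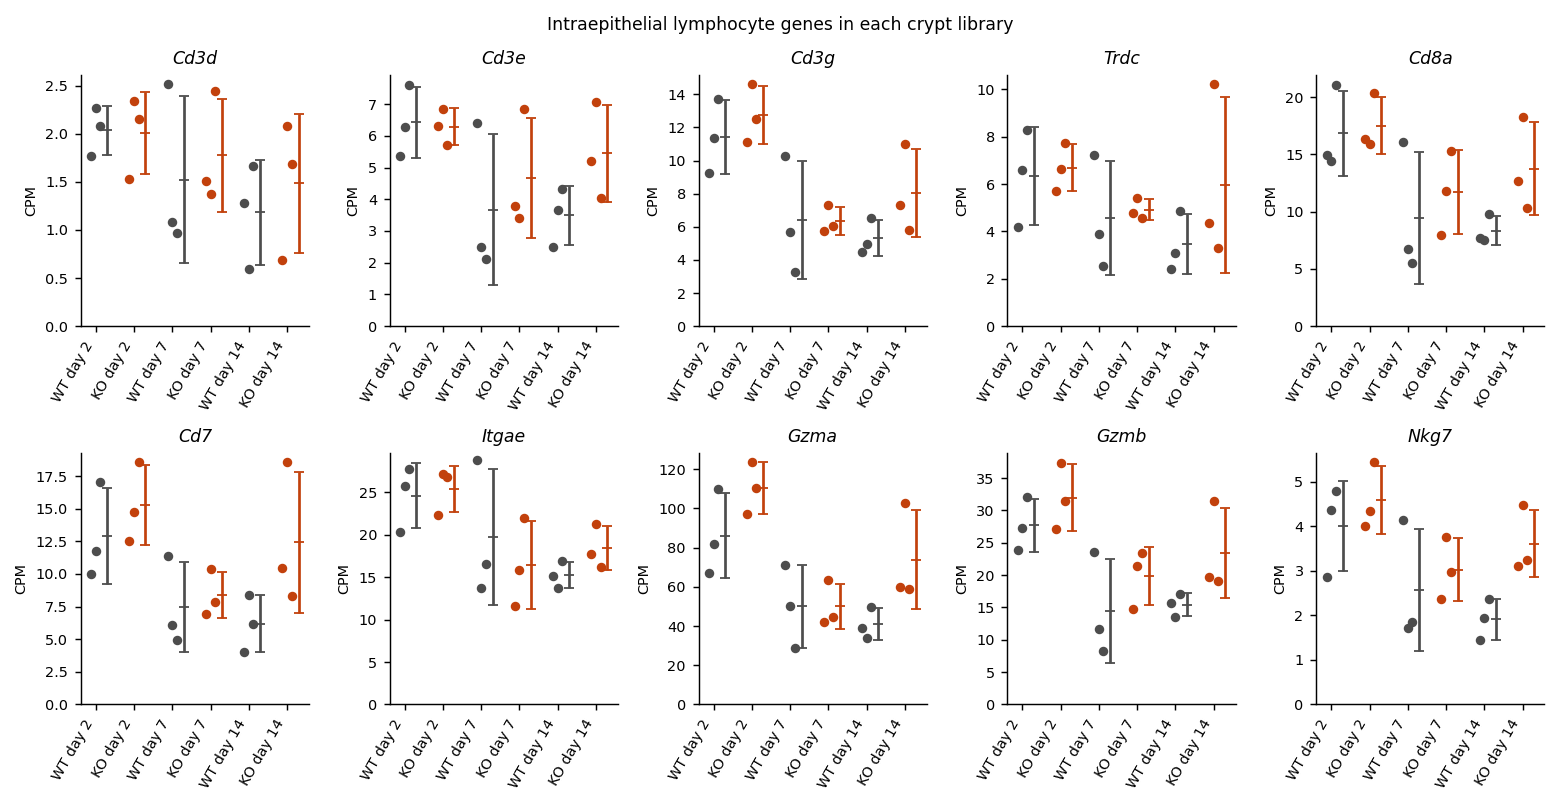
Level of each of the 10 members in CPM (vertical axes, from 0) in all 18 libraries, grouped by day and genotype, with WT libraries in grey, KO libraries in orange and bars for the group mean ± SD (n = 3). The day 2 groups sit highest for most members, and 1 WT library of day 7 and 1 KO library of day 14 lie above their groups throughout.

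To compare levels between genes, CPM was divided by the summed exon length in kilobases. Gzma was the most abundant member with a mean over the 18 libraries of 68.1 CPM per kb (SD 29.0), and Gzmb followed with 15.4 (SD 5.54) and Cd7 with 9.22 (SD 3.93). The first 3 places of the order held in every library, since Gzma exceeded Gzmb, Gzmb exceeded Cd7 and Cd7 exceeded Itgae in 18 of 18 libraries. Itgae (4.36, SD 1.20), Nkg7 (3.59, SD 1.29) and Cd8a (3.55, SD 1.31) were close neighbours. Itgae exceeded Nkg7 in 14 of 18 libraries, and Nkg7 exceeded Cd8a in 10 of 18, a mixed order for the latter pair. The receptor genes closed the order with Cd3g at 2.57 (SD 1.04), Trdc at 1.38 (SD 0.548), Cd3e at 1.23 (SD 0.429) and Cd3d at 0.919 (SD 0.326) CPM per kb. Cd8a exceeded Cd3g in 17 libraries, Cd3g exceeded Trdc in 18 and Cd3e exceeded Cd3d in 16, whereas Trdc exceeded Cd3e in 12 of 18. The pairs Nkg7 and Cd8a, and Trdc and Cd3e, therefore did not separate beyond the spread over libraries. Gzma alone made up 32.8% to 48.8% of the summed CPM of the 10 members.

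The label of the set was checked against other genes of these cells on the same per-length scale. Cd8a exceeded Cd8b1, the gene of the CD8 β chain, in 18 of 18 libraries, with a mean 7.50-fold higher. Tcrg-C1, a γ chain constant gene, exceeded the α chain constant gene Trac in 18 of 18 libraries by 2.43-fold in the mean, and Trac exceeded Trdc in 17 of 18 by 1.596-fold. Gzmb was 56.1-fold higher than Prf1, the gene of the pore protein perforin, and Gzma was 159-fold higher than Gzmk, a granzyme of other T cell subsets, both in 18 of 18 libraries. The γδ receptor genes, Itgae and the granzymes were detected in every library, and Gzmd, Gzmf and Gzmg, granzymes of mouse T and NK cells, had 0 counts in all 18.

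The summed level of the members described the libraries as a whole. On day 2 the KO libraries held 204, 253 and 241 summed CPM (replicates 1 to 3) and the WT libraries 160, 192 and 244. On day 7 the KO libraries held 102, 144 and 136 and the WT libraries 182, 103 and 74.5, and on day 14 the KO libraries held 141, 227 and 131 and the WT libraries 93.8, 91.2 and 120. All 3 KO libraries of day 2 were above all KO libraries of day 7, and the genotypes overlapped on days 2 and 7 but not on day 14. The group means ± SD (n = 3) were 233 ± 25.8 for KO and 199 ± 42.6 for WT on day 2, 127 ± 22.5 and 120 ± 55.4 on day 7, and 166 ± 53.0 and 102 ± 15.7 on day 14. Fewer lymphocytes in a preparation and less of their RNA per cell cannot be told apart in these bulk libraries.

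The comparison of the days asks how the members stood after the full tamoxifen course relative to day 2. All 10 fitted log2 changes from day 2 were below 0 in either genotype, on day 7 and on day 14. Of all genes tested, 48.8% and 48.9% were below 0 in WT on days 7 and 14 and 51% and 51.8% in KO. In KO crypts edgeR called Gzma and Cd3g lower from day 2 to day 7. These were 2 of 10 members, and 8.8% of all genes were called lower. Of 13 alternatives, Gzma was called under 11 and Cd3g under 8. Within 1 genotype edgeR called no other member, while DESeq2 called 1 in WT on day 7 and 5 on day 14.

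Gzma, the most abundant member, stood at 97.0, 124 and 111 CPM in the KO libraries of day 2, at 42.3, 63.3 and 44.5 on day 7 and at 59.7, 103 and 58.9 on day 14. In WT libraries it stood at 67.2, 81.7 and 110 on day 2, at 71.1, 50.4 and 28.6 on day 7 and at 39.2, 33.7 and 49.8 on day 14. Every KO library of day 7 was below every KO library of day 2, and the same held for WT between day 14 and day 2. The log2 change of Gzma in KO from day 2 to day 7 was -1.14 (SE 0.30, 95% confidence interval -1.77 to -0.51, adjusted p of 0.0149). In WT from day 2 to day 14 it was -1.08 (SE 0.30, adjusted p of 0.0661), which missed the threshold.

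Gzmb, the other granzyme, stood at 27.1, 37.4 and 31.5 CPM in KO on day 2, at 14.8, 21.4 and 23.4 on day 7 and at 19.7, 31.5 and 19.1 on day 14. In WT it stood at 23.9, 27.2 and 32.0 on day 2, at 23.6, 11.6 and 8.23 on day 7 and at 15.6, 13.5 and 17.1 on day 14. It was the only member whose WT libraries of day 7 all lay below those of day 2, where the log2 change was -0.92 (SE 0.30) and was not called. Nkg7, the granule membrane gene, stood in KO at 3.99, 4.34 and 5.44 CPM on day 2, at 2.36, 3.76 and 2.97 on day 7 and at 3.11, 4.48 and 3.24 on day 14. Its WT levels were 2.87, 4.36 and 4.79 on day 2, 4.14, 1.73 and 1.84 on day 7 and 1.44, 1.93 and 2.36 on day 14. For Nkg7 the WT libraries of day 14 did not reach any WT library of day 2.

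Cd3g, the γ chain of the CD3 complex, stood at 11.1, 14.6 and 12.5 CPM in KO on day 2, at 5.74, 7.34 and 6.03 on day 7 and at 7.33, 10.98 and 5.80 on day 14. In WT it stood at 9.27, 11.3 and 13.7 on day 2, at 10.3, 5.69 and 3.24 on day 7 and at 4.46, 4.97 and 6.53 on day 14. The KO libraries of days 7 and 14 all lay below those of day 2. Its log2 change in KO from day 2 to day 7 was -0.999 (SE 0.30, 95% confidence interval -1.64 to -0.36, adjusted p of 0.0315), and in WT from day 2 to day 14 it was -1.10 (SE 0.31, adjusted p of 0.0661).

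Cd3e and Cd3d, the ε and δ chains of CD3, ran lower and with more overlap. Cd3e spanned 5.69 to 6.85 CPM in KO on day 2, 3.40 to 6.86 on day 7 and 4.05 to 7.07 on day 14, and in WT 5.37 to 7.61, 2.10 to 6.40 and 2.49 to 4.31. Cd3d spanned 1.53 to 2.34 CPM in KO on day 2, 1.37 to 2.45 on day 7 and 0.685 to 2.08 on day 14, and in WT 1.76 to 2.27, 0.964 to 2.52 and 0.592 to 1.67. Both were below every WT library of day 2 in all WT libraries of day 14, and their KO groups overlapped between all days. Trdc, the γδ receptor gene, reached its highest library in KO day 14 replicate 2 with 10.2 CPM, where replicates 1 and 3 had 4.37 and 3.31. In the other groups it ran from 5.72 to 7.72 CPM in KO on day 2, 4.58 to 5.41 in KO on day 7, 4.18 to 8.28 in WT on day 2, 2.54 to 7.23 in WT on day 7 and 2.42 to 4.87 in WT on day 14. Trdc was the 1 member whose WT groups of days 2 and 14 overlapped.

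Cd8a stood at 16.3, 15.9 and 20.4 CPM in KO on day 2, at 7.96, 11.8 and 15.3 on day 7 and at 12.6, 18.2 and 10.3 on day 14. In WT it stood at 14.9, 14.5 and 21.1 on day 2, at 16.1, 6.71 and 5.52 on day 7 and at 7.71, 7.50 and 9.82 on day 14. The WT libraries of day 14 lay below those of day 2, with a log2 difference of -1.01 (SE 0.34, adjusted p of 0.113) that did not pass the test. Cd7 stood at 12.5, 14.7 and 18.6 CPM in KO on day 2, at 6.94, 10.4 and 7.82 on day 7 and at 10.4, 18.5 and 8.30 on day 14, and its WT libraries at 9.96, 11.8 and 17.05, at 11.4, 6.07 and 4.95 and at 4.004, 8.37 and 6.16. It had the widest span of the members, 4.63-fold between the highest and the lowest library.

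Itgae, the CD103 gene, varied least, 2.49-fold between the highest and the lowest library. It stood at 22.3, 27.2 and 26.8 CPM in KO on day 2, at 11.6, 15.8 and 21.9 on day 7 and at 17.7, 21.3 and 16.3 on day 14. In WT it stood at 20.3, 25.8 and 27.7 on day 2, at 28.8, 13.7 and 16.6 on day 7 and at 15.2, 13.8 and 16.9 on day 14. Every KO library of days 7 and 14 lay below every KO library of day 2, and every WT library of day 14 lay below every WT library of day 2. The log2 change of Itgae was -0.63 (SE 0.24) in KO from day 2 to day 7 and -0.69 (SE 0.24) in WT from day 2 to day 14, and neither was called.

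In KO from day 2 to day 7, Gzma and Cd3g made 2 of 10 members called, both lower, where 16% of all genes tested were called and 8.8% were called lower. An unadjusted p under 0.05 was reached by 5 members and by 30.6% of all genes. The log2 changes of the members ran from -1.14 to -0.19 with a median of -0.62, against -0.01 over all genes tested, and 8 members, all except Cd3d and Cd3e, did not overlap between the days, which held in the lower direction for 16.9% of all genes. With single libraries left out, the log2 change stayed between -1.35 and -1.02 for Gzma and between -1.12 and -0.89 for Cd3g, while the calls varied. Without KO day 7 replicate 1 no member was called (2 at an unadjusted p under 0.05), Gzma was the 1 call without any 1 of the 3 KO libraries of day 2, and Itgae was the 1 call without KO day 7 replicate 3. From day 2 to day 14 in KO, 0 members were called by edgeR or DESeq2, with 11.3% of all genes called, and 1 had an unadjusted p under 0.05, as 27.7% of all genes had. The median log2 change of -0.40 became -0.69 without KO day 14 replicate 2, and Cd3g and Itgae did not overlap between the days, as did 17.6% of all genes in the lower direction.

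In WT from day 2 to day 7, edgeR called 0 of 10 members (0.553% of all genes called) and DESeq2 called 1, Gzmb, with 9.45% of the genes for which it gave an adjusted p called. An unadjusted p under 0.05 was reached by 6 members and 22.4% of all genes, and 1 member, Gzmb, and 14.1% of all genes did not overlap in the lower direction. The median log2 change was -0.78 against 0.01 over all genes. Without WT day 7 replicate 1 the median was -1.20 and Gzmb was called at -1.49 (adjusted p of 0.0292). From day 2 to day 14 in WT, edgeR again called 0 members (1.61% of all genes called), while DESeq2 called 5, namely Cd3g, Cd8a, Gzma, Cd7 and Nkg7, and 8.51% of its genes. Of the members 9, and of all genes 20%, had an unadjusted p under 0.05. The log2 changes ran from -1.10 to -0.69 with a median of -0.94 against 0.01 over all genes, and 9 members, all except Trdc, did not overlap between the days, as did 11.5% of all genes in that direction. Between days 7 and 14 edgeR and DESeq2 each called 0 members, and 0 had an unadjusted p under 0.05, in either genotype (0.0796% of all genes called in WT and 0.0468% in KO). The median log2 differences from day 7 to day 14 were -0.28 in WT and 0.24 in KO, and each moved with 1 library. Without WT day 7 replicate 1 the WT median turned to 0.19 with all 10 members positive, and without KO day 14 replicate 2 the KO median was 0.03 with 6 positive.

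Since all 10 changes were negative in either genotype, the mean of KO and WT was compared between days in a comparison added after the values were seen. From day 2 to day 7, 5 of 10 members fell, against 20.8% of all genes called and 10.9% called lower, and 8 had an unadjusted p under 0.05, against 35.8% of all genes. They were Gzma at a log2 change of -0.96 (adjusted p of 0.00568), Cd3g at -0.91 (0.00763), Cd7 at -0.82 (0.0241), Gzmb at -0.81 (0.0145) and Cd8a at -0.70 (0.0437). From day 2 to day 14, 5 members fell, against 19.3% of all genes called and 10.2% called lower, and 9 had an unadjusted p under 0.05, against 34.4% of all genes. Here they were Cd3g at -0.88 (0.0107), Gzma at -0.83 (0.0135), Nkg7 at -0.70 (0.0331), Gzmb at -0.65 (0.0414) and Itgae at -0.58 (0.0244). Gzma, Gzmb and Cd3g fell on both later days, and both comparisons share the day 2 libraries. Gzma and Cd3g were called under all 19 alternatives on both days and Gzmb under all 19 on day 7. The other calls were less stable, with Cd7 called under 13 and Cd8a under 8 of the 19 on day 7, and Itgae under 15, Nkg7 under 13 and Gzmb under 6 on day 14. With the replicate block Cd8a on day 7 and Gzmb on day 14 were no longer called. Calls ranged from 3 to 8 on day 7 and from 2 to 8 on day 14 when single libraries were left out. On day 7 leaving out KO day 2 replicate 3, WT day 2 replicate 3, KO day 7 replicate 1 or WT day 7 replicate 3 gave 3 calls, and leaving out WT day 7 replicate 1 gave 8. On day 14 leaving out KO day 2 replicate 3, WT day 2 replicate 3 or KO day 14 replicate 1 or 3 gave 2 calls, leaving out WT day 2 replicate 2 or WT day 14 replicate 1 gave 3, and leaving out KO day 14 replicate 2 gave 8.

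**Figure D2:**
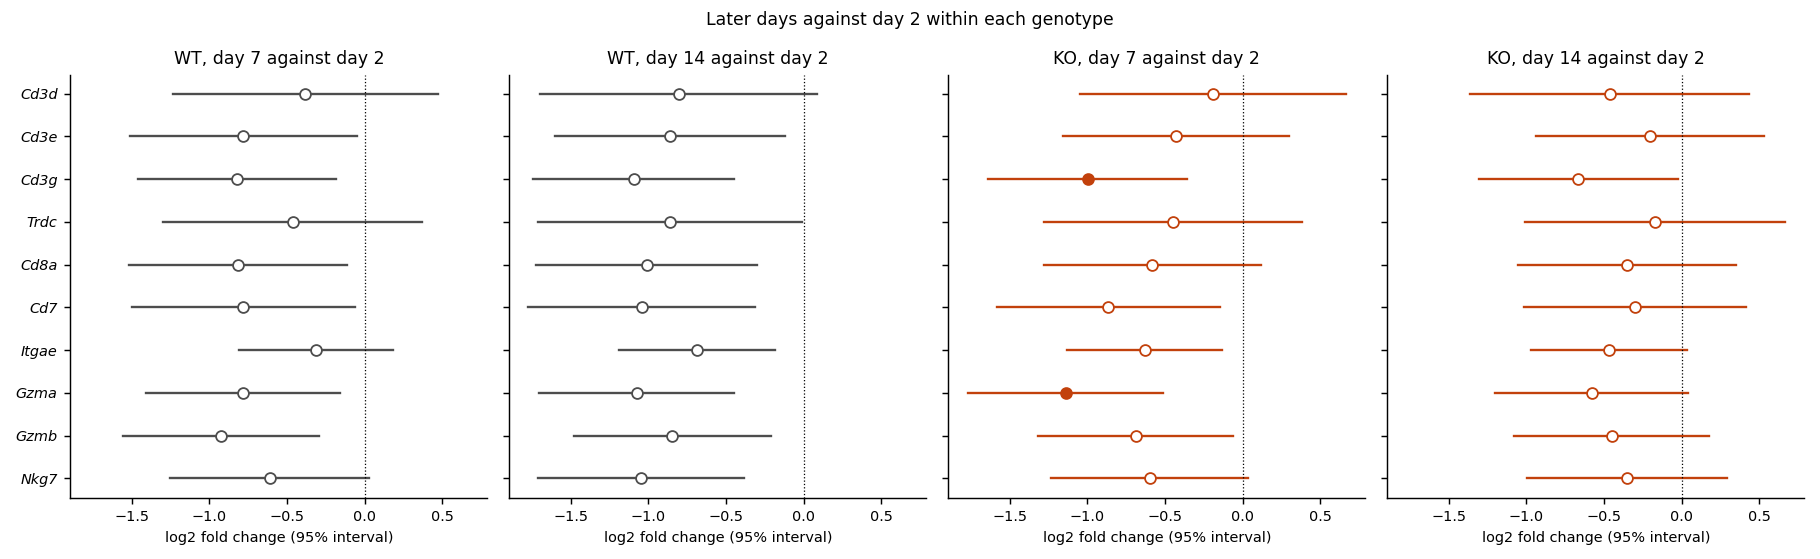
Log2 change of each member from day 2 to day 7 and from day 2 to day 14, in WT and in KO crypts, with 95% confidence intervals from edgeR's quasi-likelihood fit and filled points for called genes. All points lie below 0, and the filled points are Cd3g and Gzma in KO on day 7.

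The KO mice were then compared with WT mice on each day, the contrast for which the study was made. Lymphocytes do not use the villin promoter, but neither the cell source of the members' reads nor recombination in lymphocytes was measured. No member was called on any day by edgeR.

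On day 2, 8 members had a positive and 2 a negative log2 fold change, between -0.03 and 0.36. Of all genes 0.0328% were called, and of the members 0 were called by edgeR, 0 by DESeq2 and 0 at an unadjusted p under 0.05, as 3.33% of all genes had. Gzma had the largest value at 0.36 (SE 0.29, 95% confidence interval -0.26 to 0.98). No member had groups without overlap, as 8.16% of all genes had, and the median of 0.12 stood beside 0.00 over all genes.

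On day 7, 7 members had a positive and 3 a negative log2 fold change, between -0.27 for Itgae and 0.44 for Gzmb, with a median of 0.17 against 0.02 over all genes. Again 0 members were called by edgeR, 0 by DESeq2 and 0 at an unadjusted p under 0.05, on a day when 17.3% of all genes were called and 29.9% had an unadjusted p under 0.05, and 0 had groups without overlap, as 33.6% of all genes had. WT day 7 replicate 1 held 182 summed CPM where the other WT libraries held 103 and 74.5, and without it 3 members were called higher in KO, with 11.5% of all genes called. They were Cd3e at 1.03 (adjusted p of 0.0461), Gzmb at 1.01 (0.0117) and Cd8a at 0.94 (0.0324), and all 10 fold changes were then positive with a median of 0.70.

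On day 14 all 10 members had a positive log2 fold change, from 0.27 for Itgae to 0.98 for Cd7, with a median of 0.67 against 0.00 over all genes, of which 50.2% were positive. edgeR called 0 of them where it called 7.92% of all genes, 3 of the members and 21.6% of all genes had an unadjusted p under 0.05, and DESeq2, which called 9.11% of its genes, called 2 members, Gzma at 0.86 (adjusted p of 0.0325) and Cd7 at 1.00 (0.0391). The 3 members were Cd7 at 0.98 (SE 0.35, 95% confidence interval 0.25 to 1.72, adjusted p of 0.0994), Nkg7 at 0.89 (SE 0.32, 0.22 to 1.57, 0.101) and Gzma at 0.85 (SE 0.30, 0.22 to 1.48, 0.0942). Every KO library was above every WT library for Gzma, Gzmb, Cd8a and Nkg7, 4 of 10 members, as for 12.4% of all genes in that direction. The other 6 members overlapped between the genotypes, Cd7 among them with a lowest KO library of 8.30 and a highest WT library of 8.37 CPM.

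The day 14 result differed between fits and depended on 1 library. Deviations of KO and WT libraries of the same number correlated only weakly on day 14, at r = 0.16 to 0.23. Day 2 held a higher value of 0.38, and the labels state no pairing. In the summed members, replicate 2 was the highest KO library of day 14 (227 CPM) and the lowest WT library (91.2 CPM). The fit of all 18 libraries with the replicate number as a block called 0 members, with 3 at an unadjusted p under 0.05. That block gives each number 1 effect shared by all days, so it does not model a pairing on day 14 alone. A fit of only the day 14 libraries with the block, added after the values were seen, called 2 members higher, with 11.4% of all genes called. They were Cd7 at 0.98 (adjusted p of 0.0145) and Nkg7 at 0.92 (0.0469). Without KO day 14 replicate 2 the fold changes ran from 0.01 to 0.72 with a median of 0.38. Then 0 members were called, as with all libraries, and 0 had an unadjusted p under 0.05, where 3 had with all libraries. That fit had fewer KO libraries, and its share of all genes called is not given here.

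**Figure D3:**
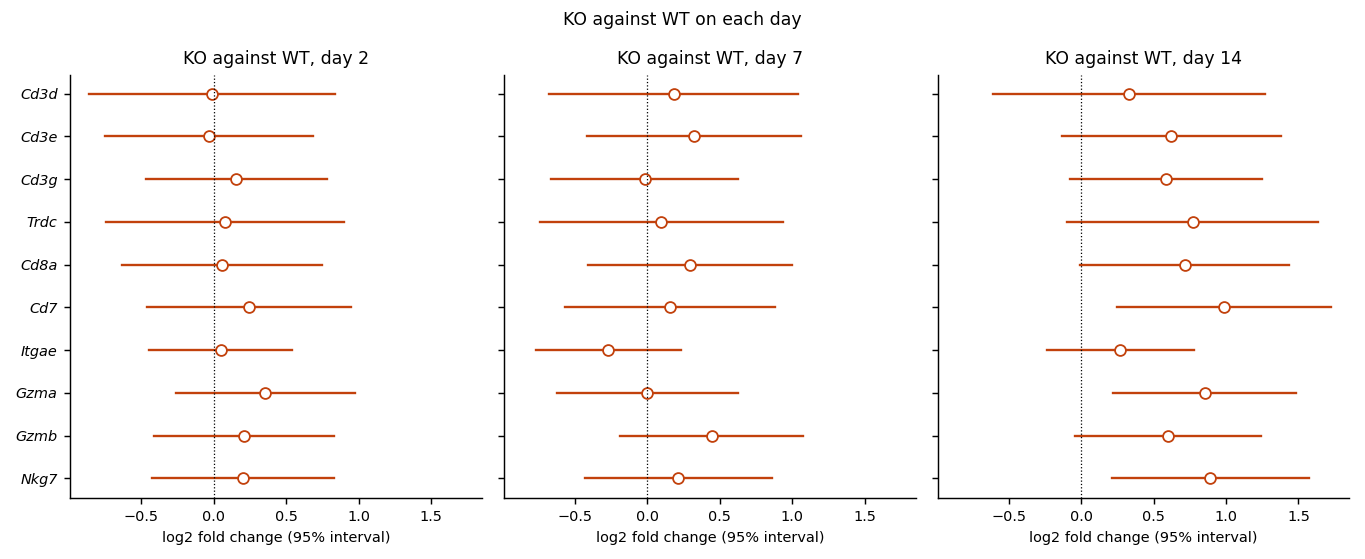
Log2 fold change of KO against WT for each member on days 2, 7 and 14 with 95% confidence intervals from edgeR's quasi-likelihood fit, where open points mark genes that were not called. All points are open, those of day 14 all lie above 0, and those of days 2 and 7 lie on both sides of it.

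The KO effect was not shown to differ between days. The difference between the KO effects of day 14 and day 2 was positive for all 10 members with a median of 0.58, that of day 14 and day 7 for all 10 with a median of 0.57, and that of day 7 and day 2 for 6 with a median of 0.02. In the tests of these differences 0 members were called by edgeR or DESeq2, where edgeR called 1.04%, 0% and 4.37% of all genes. None had an unadjusted p under 0.05, as 11.9%, 4.46% and 18.1% of all genes had. The lowest adjusted p of a member was 0.593, 0.999 and 0.687. The day 14 differences share their KO and WT libraries. Without KO day 14 replicate 2 the medians of the day 14 differences were 0.17 from day 2 and 0.24 from day 7, and without WT day 7 replicate 1 those of the differences with day 7 were 0.09 for day 14 and 0.56 for day 2, again with 0 members called.

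To see whether the make-up of the set differed between genotypes apart from its amount, 7 members were expressed as a ratio to the summed counts of the 3 Cd3 genes. Exact two-sided permutation tests of 3 against 3 libraries cannot go below p = 0.1, and 4 of 21 tests reached it, none under an adjusted p of 0.525. Gzma per Cd3 was 1.22-fold higher in KO on day 2, with 5.11 to 5.43 in KO and 4.10 to 4.69 in WT. On day 7 Gzmb per Cd3 was 1.22-fold higher in KO and Itgae per Cd3 was lower at 0.675 of WT. For Itgae the KO libraries ran from 1.05 to 1.43 and the WT libraries from 1.48 to 2.63 (SD 0.66). On day 14 Nkg7 per Cd3 was 1.29-fold higher in KO. These ratios were not recomputed with libraries left out.

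The members varied together over the libraries. After removal of the group means, Pearson's r over the 18 libraries was above 0 for all 45 pairs, from 0.27 for Cd3d and Cd7 to 0.94 for Cd3g and Gzma, with a median of 0.77. Gzmb followed the mean of the other 9 members most closely at r = 0.95, Cd3g and Cd8a had r = 0.92, and Cd3d, the gene with the fewest counts, had r = 0.62. These values describe libraries that share sequencing depth and preparation, and no test is attached to them. WT day 7 replicate 1 and KO day 14 replicate 2, each the highest of its group for all 10 members, enter every pair. The values were not recomputed without these libraries.

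Genes outside the set were ranked by their correlation with the mean of the members over the 18 libraries. The ranking was not recomputed without WT day 7 replicate 1 and KO day 14 replicate 2. With group means removed, the 10 highest were Ccl5 at r = 0.97, Prkch at 0.94, Gm43434 at 0.92, Selplg at 0.92, Cd200r4 at 0.90, Tcrg-C1 at 0.90, Spn at 0.88, Cd96 at 0.88, Klrd1 at 0.88 and Foxq1 at 0.87. Ccl5 encodes a chemokine stored by cytotoxic T cells, Prkch a protein kinase C of T cells, Selplg and Spn leukocyte surface mucins, Cd96 and Klrd1 receptors of T and NK cells and Foxq1 a forkhead transcription factor. Gm43434 shares exon bases with Trdc on the other strand. With the group means kept, Selplg led at r = 0.96 before Ccl5 at 0.95, and Gimap4 at 0.92 and Tcrg-C2 at 0.91 stood among the 10 highest in place of Cd200r4 and Foxq1.

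Other genes of these cells, in lists chosen with earlier results of these data known, are given as counts. Of 31 further T cell genes 28 were tested, and edgeR called 0 between KO and WT on each day, DESeq2 called 0, and 0, 0 and 6 had an unadjusted p under 0.05 on days 2, 7 and 14. Of all genes 0.0328%, 17.3% and 7.92% were called on these days, and 3.33%, 29.9% and 21.6% had an unadjusted p under 0.05. The most abundant were Bcl11b (50.8 CPM), a transcription factor known from T cells, Ptprcap (36.2 CPM) and Ptprc (32.5 CPM), the latter encoding CD45 of all leukocytes. Bcl11b stood above Cd3e, whose median was 5.29 CPM, and which cells its reads came from was not tested. Over both genotypes, 9 of the 28 fell from day 2 to day 7, where 10.9% of all genes fell, among them Trbc2 at a log2 change of -0.99 (adjusted p of 0.00521), Tcrg-C1 at -0.94 (0.0324) and Trac at -0.66 (0.0414), the β, γ and α chain constant genes. From day 2 to day 14, 9 fell, where 10.2% of all genes fell, and 1 rose, as did 9.03% of all genes, Bcl11b at 0.27 (adjusted p of 0.0268). Of 21 further cytotoxic genes 13 were tested, and edgeR and DESeq2 called 0 between KO and WT, with 1, 3 and 2 at an unadjusted p under 0.05, beside the same shares of all genes. Ccl5 led this list at 11.4 CPM, before Ctsw (7.42), a cathepsin of cytotoxic cells, and Srgn (4.17), the granule proteoglycan. Over both genotypes 2 of the 13 fell from day 2 to day 7, Prf1 at -0.91 (adjusted p of 0.0239) and Tyrobp at -0.997 (0.0338). From day 2 to day 14, 2 fell, Prf1 at -1.21 (0.00833) and Tnf at -0.85 (0.0415), and Gzmm rose at 0.63 (0.0386). Of all genes 10.9% fell on day 7, and 10.2% fell and 9.03% rose on day 14.

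Of 26 genes of gut homing and residency, 22 were tested, and 4 were called between KO and WT on day 7 and 2 on day 14. Itga1, which encodes the collagen-binding integrin α1, was lower in KO at -1.05 on day 7 (adjusted p of 0.000658) and at -0.68 on day 14 (0.0275). Its KO libraries ran from 16.8 to 26.4 CPM on day 7, below the WT libraries at 34.1 to 52.9. Ccr9, the receptor for the gut chemokine CCL25, was lower on day 7 at -0.63 (0.0210), and Gpr55, a lysolipid receptor, at -0.77 (0.0379). Id2, a regulator of lymphocyte lineages, was higher at 0.76 on day 7 (0.0150) and 1.06 on day 14 (0.00299). The shares called, 4 and 2 of 22, stood beside 17.3% and 7.92% of all genes on these days, and each of these genes is also known from other cells of the gut. Over both genotypes 5 of the 22 fell from day 2 to day 7 and 7 from day 2 to day 14, where 10.9% and 10.2% of all genes fell. Of 22 epithelial genes whose products act on these lymphocytes, 19 were tested and 1 was called, Il18, which encodes an interleukin of the epithelium. It was higher in KO at 0.85 on day 7 (0.000684) and 1.23 on day 14 (5.60e-05), with 61.6 to 71.7 CPM in KO against 30.8 to 47.8 in WT on day 7. Cdh1, the gene of E-cadherin, which CD103 binds, was the most abundant of the list at 762 CPM and was not called on any day. Btnl1 and Btnl6, butyrophilin-like genes known to act on γδ intraepithelial lymphocytes, stood at 196 and 234 CPM and were not called between KO and WT either. Over both genotypes 2 of the 19 genes fell and Il18 rose from day 2 to day 7, where 10.9% of all genes fell and 9.91% rose, and 5 fell from day 2 to day 14, where 10.2% of all genes fell, among them Btnl6 at -0.54 (adjusted p of 0.0163) and Clec2h at -0.75 (0.00315), the gene of a C-type lectin-like protein.

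Markers of villus enterocytes, the mature absorptive cells above the crypt, moved in the same direction as the members over the days. Their 18 genes, all tested and none at 0, summed to 27113 to 57899 CPM in WT and 35027 to 42726 in KO on day 2, to 20762 to 25057 and 27437 to 40267 on day 7, and to 11425 to 25106 and 22027 to 38915 on day 14. Over both genotypes 7 of 18 fell from day 2 to day 7 and 11 from day 2 to day 14, where 10.9% and 10.2% of all genes fell. Between KO and WT, 3 were higher (Fabp1 at 1.55, Rbp2 at 1.495 and Fabp2 at 1.22) and 1 was lower (Lct at -1.42) on day 7, and 1 was higher (Sis at 1.15) on day 14. The median of the 18 was -0.12, 0.66 and 0.70 on days 2, 7 and 14, where that of the members was 0.12, 0.17 and 0.67. Of all genes 17.3% and 7.92% were called on days 7 and 14. The villus sum of WT day 7 replicate 1 lay between those of the other WT libraries of that day, and that of KO day 14 replicate 2 was the highest of its group at 38915 CPM. Over the 18 libraries, the mean log2 level of these markers and that of the members had r = 0.74 and Spearman's rho = 0.81 with the group means kept, and r = 0.40 and rho = 0.42 with them removed, as a description with no test. Their part in the differences of the members was not tested.

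**Figure D4:**
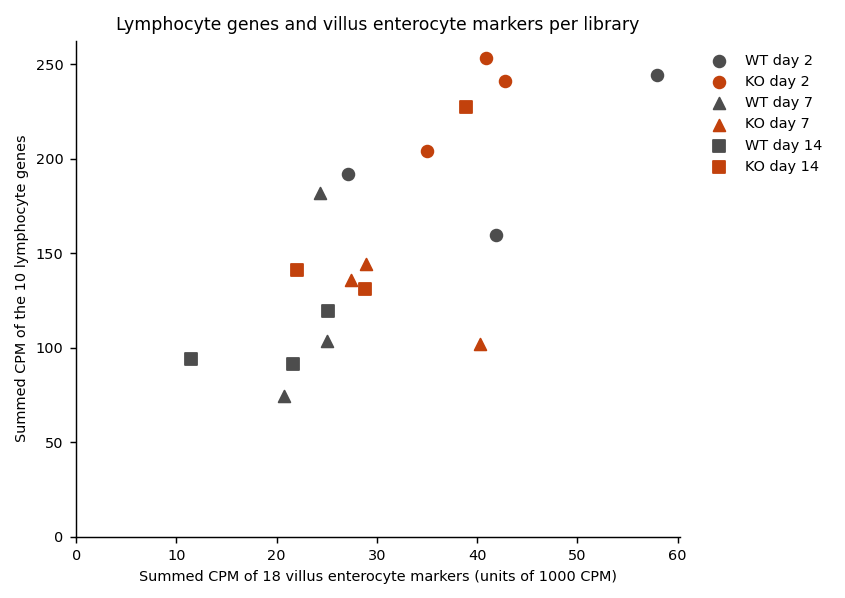
Summed CPM of the 10 members (vertical axis) against the summed CPM of 18 villus enterocyte markers in units of 1000 CPM (horizontal axis) for the 18 libraries, coloured by genotype with a marker shape for each day. Most libraries of day 2 lie to the upper right and WT libraries of day 14 to the lower left, with WT day 7 replicate 1 and KO day 14 replicate 2 above the others of their groups.

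Markers of other cells were measured in the same way. B and plasma cell markers (15 of 16 tested) summed to 110 to 198 CPM over all libraries and stromal markers (15 of 17 tested) to 24.4 to 204. With the group means removed, the members' mean had r = -0.15 with the B cell list, 0.24 with the myeloid list, -0.11 with the stromal list, -0.07 with the pan-epithelial list and 0.40 with the log10 total count, against 0.88 with the further cytotoxic genes and 0.57 with the further T cell genes. Of 12 markers of innate lymphoid, NK and regulatory T cells only 3 were tested, and Ncr1, which defines NK cells, had at most 3 counts in any library, so lymphocytes of that kind were near the limit of detection at this depth.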

How the data were processed

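RNA-Seq counts were analysed from 18 libraries of small intestinal crypts, grouped by the genotype and day in the sample titles. The authors deposited 1 table of whole-number counts per gene without normalization, and 0 of its columns were left unused. Their processing notes name STAR 2.7.3, featureCounts 1.6.4, HTSeq and mm10, and the file header names GENCODE release 23 for mouse whereas the methods name a later release. Per the file header, strand was not used, a fragment on more than 1 gene added to each of them, and multimapping fragments were dropped.

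The 20 genes that the study had removed for their link to sex were left out before normalization. The group-wise filterByExpr of edgeR 4.0.16 kept 21349 genes, and counts were scaled by TMM (factors 0.857 to 1.13). A model with 1 mean per group over all 18 libraries was fitted by quasi-likelihood in edgeR (limma 3.58.1, R 4.3.3) and tested on simulated data. P-values were adjusted by Benjamini-Hochberg over all genes tested, with a threshold of 0.05. Log2 CPM values use a prior count of 2. For ratios, exact permutation tests over libraries were two-sided.

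The members and all lists were chosen with earlier results of these data known. All members were named. From other lists, the genes called between KO and WT (up to 4 per list and day) and the 3 most abundant were eligible, and the likest genes were the 10 with the highest r. Genes named beyond this rule were chosen after their values were seen. These are the chain constant, Cd8b1, perforin and granzyme genes set beside the members, and Btnl1, Btnl6, Clec2h, Tyrobp and Tnf. Ncr1 and the genes of the other observations were also chosen so.

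KO and WT libraries share replicate numbers. Deviations of same-numbered libraries correlated at r = 0.23, 0.18 and 0.16 on day 14. They correlated at 0.05, 0.16 and 0.38 on day 2 and at -0.16, 0.21 and 0.08 on day 7. The numbers were treated as a pairing on day 14 only, although these correlations were weak and the highest was on day 2. The labels state no pairing. In the fit of all libraries, the block gave each number 1 effect shared by all days. Alternatives were DESeq2 1.42.0's Wald test, its size factors, no filter on low counts, the 20 most abundant genes left out, the 20 removed genes kept, only the groups compared, the replicate block, the geometric mean of the members in place of their sum, and each library left out. The mean of both genotypes and the day 14 fit with a block were added after the values were seen. Counting error and the spread between mice were not separated. Python 3.11.15 with matplotlib 3.10.9 was used for plots.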

Additional observations from a re-analysis of the deposited data

How the results depend on the processing

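The number of members called was within 1.5 times the reported one under most alternatives. Between KO and WT on day 14 it was 1 with no filter on low counts, 2 with DESeq2's Wald test and 2 in the day 14 fit with the replicate block. In WT it was 1 with DESeq2 on day 7, and 5 with DESeq2 and 3 with no filter on day 14, each against day 2. In KO from day 2 to day 7 it was 4 with only the groups compared. With single libraries left out it ran from 0 to 3 between KO and WT on day 7, from 0 to 1 in WT and from 0 to 2 in KO from day 2 to day 7, and over both genotypes from 3 to 8 on day 7 and from 2 to 8 on day 14. The log2 ratio of the summed levels ran from 0.10 to 0.39 on day 2, from -0.16 to 0.52 on day 7 and from 0.44 to 0.87 on day 14. In the fit of all libraries with the replicate block, 0 members were called between KO and WT on each day, and over both genotypes 4 were called on day 7 and 4 on day 14, where Cd8a on day 7 and Gzmb on day 14 lost their call, and the block changed no other call. Between KO and WT and between day 2 and the later days, signs reversed for members that were not called, with reported values up to 0.33 in size. Gzma between KO and WT on day 7 turned from -0.00032 to 0.0066 with DESeq2's size factors and 0.0060 with its Wald test. With single libraries left out, KO against WT ranged on day 2 from -0.12 to 0.14 for Cd3d, -0.15 to 0.10 for Cd3e, -0.066 to 0.25 for Cd8a, -0.15 to 0.31 for Trdc and -0.072 to 0.13 for Itgae. On day 7 it ranged from -0.091 to 0.79 for Cd3d, -0.031 to 1.03 for Cd3e, -0.34 to 0.53 for Cd3g, -0.28 to 0.35 for Gzma, -0.20 to 0.63 for Trdc, -0.50 to 0.12 for Itgae and -0.070 to 0.61 for Cd7, and on day 14 from -0.030 to 0.73 for Cd3d. Trdc in KO from day 2 to day 14 ranged from -0.78 to 0.13. The cause of these shifts was not tested. Depth was lowest for Cd3d, with 13 to 70 counts per library.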

Other observations

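Of 14 myeloid genes tested in the comparison of both genotypes that was added after the values were seen, 4 rose from day 2 to day 14, where 9.03% of all genes rose. They were Adgre1 (log2 change 1.92), Cd68 (1.09), C1qb (2.43) and C1qc (2.08), known from macrophages, with adjusted p-values of 0.0161, 0.00429, 0.0109 and 0.0235 by edgeR's quasi-likelihood test. From day 2 to day 7 the list had 2 genes called higher and 1 lower, with a median log2 change of -0.02, where 9.91% of all genes were called higher and 10.9% lower. The lower gene was Siglecf, a gene of eosinophils that tuft cells also express, at -0.89 (adjusted p of 0.00491). Of 15 B and plasma cell markers tested, edgeR called 0 and DESeq2 called 0 between KO and WT on day 14, and 1 had an unadjusted p under 0.05, where edgeR called 7.92% of all genes and 21.6% had an unadjusted p under 0.05. The mean log2 CPM of that list was 2.84 in WT day 14 replicate 1, -0.03 and 1.59 in the other WT libraries of that day and 0.90, 0.41 and 1.56 in the KO libraries.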
